A study of Mus musculus with 10 samples.

Results

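The Wnt ligands, their Frizzled receptors and a set of core pathway genes were followed in endothelial-gated cells of normal mouse lung and of lung metastases. Members were all genes named Wnt or Fzd with a number, plus the coreceptors Lrp5 and Lrp6, the receptor partner Tspan12, the transducers Ctnnb1, Axin1, Lef1, Tcf7, Tcf7l1 and Tcf7l2, and the feedback inhibitors Axin2, Apcdd1, Nkd1, Notum, Rnf43 and Znrf3. The rule found 44 genes among the 24538 in the count tables: 19 ligands, 10 Frizzleds, 3 coreceptors or receptor partners, 6 transducers and 6 feedback inhibitors. The rule used gene names and no measured value, but the members were chosen with earlier results of these data known.

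All 10 libraries came from wild-type C57BL6/J mice with an age tag of 8 to 10 weeks, 5 from normal lung and 5 from lung metastases. For the metastases, E0771-LG cells, which derive from a mouse mammary tumour, were injected into the tail vein of females aged 6 to 8 weeks. Nodules under 1 mm across were dissected and pooled from 2 to 4 mice per the labels, which do not say whether each normal lung library is 1 animal. All tissue was digested for 30 min with 2 transcription inhibitors in the buffer, and live cells with surface CD31 (an endothelial adhesion molecule) and without CD45 (a leukocyte protein) were sorted. Because the labels do not name the animals behind each library, p-values measure the spread between these libraries.

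Wnt proteins are secreted lipid-modified ligands that bind a Frizzled receptor together with Lrp5 or Lrp6. In the canonical branch this protects beta-catenin (Ctnnb1) from destruction by the Axin complex, and beta-catenin then acts with factors of the Tcf and Lef family on target genes that include the pathway's own inhibitors. In vessels, Fzd4 with Lrp5 and the tetraspanin Tspan12 forms the receptor for norrin, a ligand unrelated to the Wnts, and this complex is known for its part in the growth and barrier of retinal vessels. Other Wnts, Wnt5a among them, act mostly through beta-catenin-independent branches such as planar polarity.

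Counts assigned to genes ranged from 41004704 to 79710581 per normal library and from 21677429 to 54266459 per metastasis library, so 3 counts correspond to 0.0359 to 0.149 CPM (counts scaled to a common library size of 1e6). Endothelial markers were present in every library but lower in metastases: 16 of 19 pan-endothelial genes fell and none rose (median log2 fold change -2.37), and Pecam1, which encodes CD31, stood at 1840 to 3922 CPM in normal lung and 146 to 1402 CPM in metastases. Their median level was 35.2, 23.1, 19.3, 8.66 and 6.32% of the normal lung mean in metastasis replicates 1 to 5. Ptprc, which encodes the CD45 that the sort selected against, was at 8.05 to 26.1 CPM in normal lung and at 84.0 to 154 CPM in metastases (2.77 ± 0.57 SE, edgeR adjusted p = 0.0012). Of the fibroblast markers 5 of 6 tested rose, with a summed level of the 10 listed genes of 6.65 to 78.7 CPM in normal lung and 351 to 917 CPM in metastases. Of the macrophage markers 4 of 7 tested rose (10 listed genes, summed 42.7 to 208 against 317 to 1416 CPM), and all 10 of each list had counts in both groups. Of the 8 keratin and mammary tumour markers 2 were tested. Krt8 rose, from 0.16 to 0.34 CPM in normal lung to 4.61 to 42.2 CPM in metastases. The other tested marker had a log2 fold change of -0.87 and was not called. Krt5 was at 0 throughout, and the list's summed level was 4.11 to 38.6 CPM against 6.10 to 65.2 CPM. Of the platelet markers 2 of 7 tested rose (summed 183 to 975 against 675 to 12168 CPM, metastasis replicate 1 highest). Of the lung epithelial markers 2 of 6 tested fell (summed 100.1 to 859 against 26.7 to 191 CPM, Aqp5 at 0 throughout), of the pericyte and smooth muscle markers 1 of 4 fell, and neither of 2 T and B cell markers was called. In bulk RNA of this kind, fewer cells of a type and less RNA per cell cannot be told apart, and the part of these markers in the results that follow was not tested.

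Groups were compared for each gene with edgeR's quasi-likelihood test, with Benjamini-Hochberg adjustment over 11823 tested genes, and a gene is said to have risen or fallen only where its adjusted p was under 0.05. Of the 44 members 20 passed the filter on low counts, 16 had counts but too few, and 8 had no count in any library. Wnt5a and Znrf3 rose, and Fzd4, Tspan12 and Nkd1 fell. That is 5 of 20, or 25%, where 20.2% of all tested genes were called (12.0% higher and 8.22% lower). The members' share lies near that background. DESeq2, which gave an adjusted p for 26 members, called 10 of them where it called 30.6% of all genes. Of these 6 were higher (Wnt5a, Znrf3, Wnt7b, Wnt5b, Wnt10a and Rnf43) and 4 lower (Tspan12, Nkd1, Fzd8 and Lef1, without Fzd4). The median log2 fold change, metastases minus normal lung, was -0.28 over the tested members and 0.06 over all tested genes. In CPM every metastasis library lay above every normal one in Wnt5a and Znrf3, and in Tspan12 every one lay below (8.50% and 6.17% of all tested genes do so, 14.7% in either direction). When libraries were instead scaled to the pan-endothelial genes, the median of all genes moved to 2.80, 9 members rose and none fell, and 99.7% of all calls were higher in place of 59.4%.

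**Figure D1:**
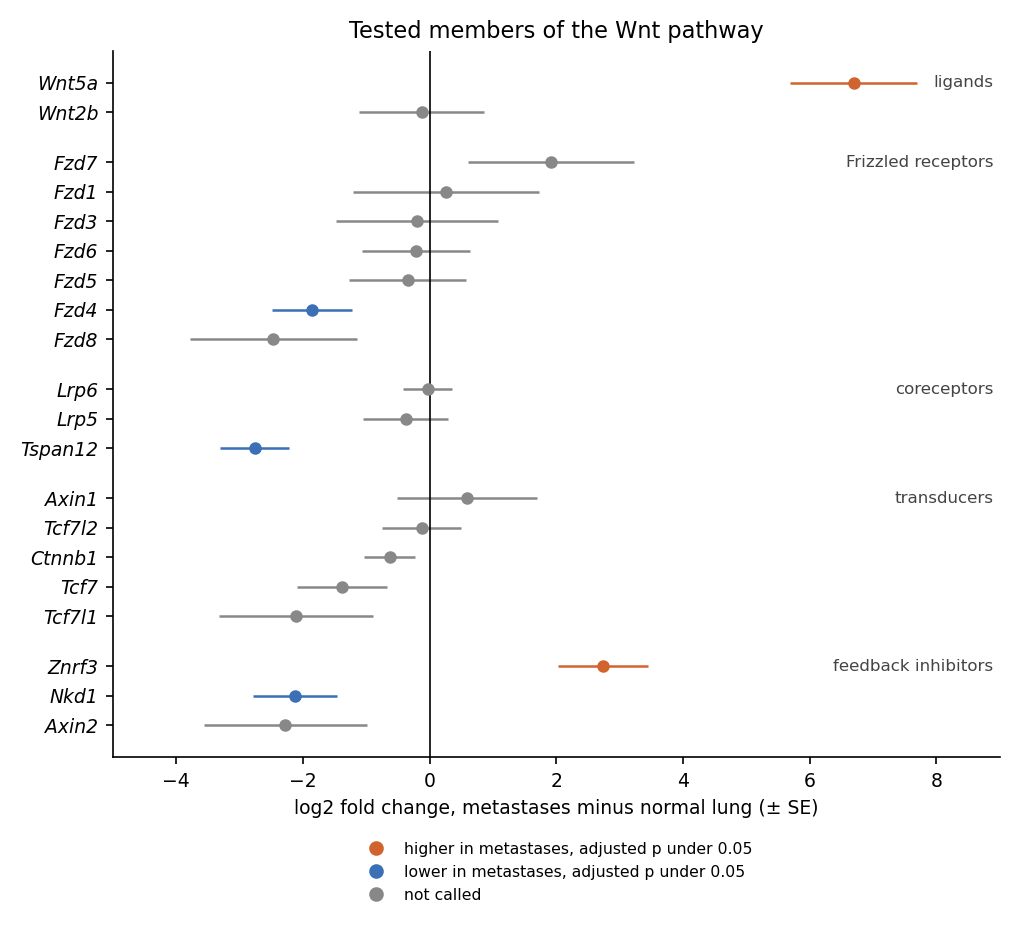
Log2 fold change of the 20 tested members (metastases minus normal lung, horizontal axis; bars are SE), ordered by role. Wnt5a lies far to the right at 6.70 and Znrf3 at 2.74, while Tspan12 (-2.76), Nkd1 (-2.12) and Fzd4 (-1.86) are the called members on the left.

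The 3 members that fell act at or just below the receptor. The stretch before each RefSeq transcription start is shown because these were the members called lower in the main fit. Whether they share regulation was not tested. Promoter entries (RefSeq, GRCm38.p6, mouse) matched 30 of the 44 members by symbol; Wnt5a and Znrf3 were not among them. Each line gives the 250 bases upstream of the start, 5′ to 3′ on the gene's own strand. Capitals mark GGAA on either strand (TTCC on the printed one), the core of sites for ETS factors, a family known for its part in endothelial transcription.
Fzd4, chr7:89404116-89404365, plus strand: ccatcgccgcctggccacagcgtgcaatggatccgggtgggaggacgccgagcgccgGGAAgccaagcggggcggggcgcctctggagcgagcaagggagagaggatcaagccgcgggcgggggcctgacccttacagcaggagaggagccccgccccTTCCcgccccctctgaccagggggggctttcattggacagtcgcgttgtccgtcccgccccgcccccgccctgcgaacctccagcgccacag
Tspan12, chr6:21852534-21852783, minus strand: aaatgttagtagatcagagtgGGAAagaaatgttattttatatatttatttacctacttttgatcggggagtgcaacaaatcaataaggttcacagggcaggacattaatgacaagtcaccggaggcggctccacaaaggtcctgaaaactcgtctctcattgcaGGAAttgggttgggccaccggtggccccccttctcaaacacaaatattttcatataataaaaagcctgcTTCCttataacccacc
Nkd1, chr8:88527383-88527632, plus strand: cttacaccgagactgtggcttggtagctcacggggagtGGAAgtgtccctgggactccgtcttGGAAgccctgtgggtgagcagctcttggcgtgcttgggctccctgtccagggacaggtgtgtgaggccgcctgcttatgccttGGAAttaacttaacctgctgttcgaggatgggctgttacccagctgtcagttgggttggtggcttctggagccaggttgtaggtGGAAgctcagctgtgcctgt
The Fzd4 stretch is 72.8% G and C with 25 CpG pairs and 2 matches to GGAA. That of Tspan12 is 42.0% G and C with 5 CpG pairs and 3 matches, and that of Nkd1 is 58.4% with 6 CpG pairs and 4 matches. The median over 27025 promoters of the same length was 52.0% G and C, 6 CpG pairs and 3 matches, and 93.4% of them held at least 1 GGAA, so the word does not set these members apart. The words CTTTGAT and CTTTGAA, taken here for the site of Tcf and Lef factors and searched on both strands, were in none of the 3 stretches, in 7.67% of all promoters and in 1 of the 30 members, Wnt11. The Nkd1 stretch lies inside the longer Nkd1 gene of GENCODE M21, in an intron.

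Among the ligands, Wnt5a went from a few counts per normal library to the highest length-scaled level of any ligand in 4 of 5 metastasis libraries, and Wnt2b, the leading ligand of normal lung, varied widely within both groups. Wnt5a (ENSMUSG00000021994.15, chromosome 14, 28504750 to 28527448, plus strand) had 22, 21, 19, 13 and 24 counts in normal lung replicates 1 to 5 and 1220, 2039, 1593, 1126 and 746 counts in metastasis replicates 1 to 5. On the CPM scale these were 0.337, 0.251, 0.447, 0.339 and 0.648 against 41.3, 31.2, 79.0, 32.7 and 26.3. All 5 metastasis libraries were far above all 5 normal ones, and the spread within each group was small beside the gap. The mean went from 0.404 ± 0.153 to 42.1 ± 21.3 CPM (SD, n = 5 each), 104-fold, with a log2 fold change of 6.70 ± 1.00 (SE; edgeR adjusted p = 4.71e-05). Leaving out any 1 library gave 6.31 to 6.90, and pan-endothelial scaling gave 9.25. The summed levels of the 10 fibroblast and of the 10 macrophage markers, Ptprc and the keratin Krt8 were also higher in all 5 metastasis libraries. The summed level of the keratin and mammary tumour markers overlapped between the groups. In replicates 1 to 5 the fibroblast sum was 369, 917, 578, 351 and 420 CPM. The macrophage sum was 317, 1381, 1416, 964 and 842 CPM. Which cells held the Wnt5a transcripts was not tested. An antisense gene, Gm2670, overlaps Wnt5a, and the use of read strand in counting is not given in the sources used here.

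Wnt2b, a ligand known from canonical signalling in the early lung field, was at 37.1, 62.9, 1.84, 4.38 and 13.9 CPM in normal lung and at 65.1, 7.5, 24.2, 2.18 and 11.0 CPM in metastases. The ranges lay almost on top of each other (-0.13 ± 0.99, edgeR adjusted p = 0.948). Compared per transcript length in the authors' FPKM, Wnt2b made up 68.6 to 99.0% of the summed ligand signal of normal lung libraries and 4.22 to 47.9% of that in metastases. Wnt5a made up 0.371 to 11.4% in normal lung and 22.4 to 67.1% in metastases, where it led in replicates 1 to 4, in replicate 3 only just (48.7% beside 47.9% for Wnt2b). Summed over the 19 ligands, FPKM was 7.17 ± 7.66 (SD, n = 5) over normal lung libraries and 19.7 ± 7.02 (SD, n = 5) over metastases. These sums mix a ligand that was at similar levels in both groups with others that were near 0 in normal lung.

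The other 17 ligands were not tested, because too few libraries held enough counts. Wnt7b, a canonical ligand known from lung epithelium, had 2, 10, 3, 3 and 3 counts in normal lung and 1, 838, 3, 136 and 700 counts in metastases. Metastasis replicates 2, 4 and 5 reached 12.8, 3.95 and 24.7 CPM, while replicates 1 and 3 stayed at the level of normal lung. In metastasis replicate 5 Wnt7b was 57.2% of the summed ligand FPKM, more than Wnt5a at 22.4%. Metastasis replicate 2 also held most of the counts of Wnt4 (8.28 CPM), Wnt5b (8.62 CPM) and Wnt10a (6.18 CPM). In the other 9 libraries these 3 were at most 0.523, 0.776 and 1.13 CPM. Wnt1 was seen almost only in metastasis replicate 4 (2.35 CPM), and Wnt16 only in normal lung replicate 1 (1.26 CPM).

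Wnt6, Wnt3 and Wnt10b had no count in normal lung. Wnt6 had 13, 0, 0, 6 and 7 counts in metastases, pooled at least 13-fold higher than 3 counts over the normal group would give (7.80-fold without metastasis replicate 1). Wnt3 had 8 counts in metastases, 7 of them in replicate 1, and Wnt10b had 4, of which 3 were in replicate 4, too few to give a fold. Wnt9a was the reverse, with 9 counts in normal lung replicate 2 and none elsewhere. Wnt8b did not exceed 8 counts in any library. Wnt2, Wnt3a, Wnt7a, Wnt8a, Wnt9b and Wnt11 had no count in any library, which allows up to 0.0359 to 0.149 CPM per library at 3 counts. Without the filter on low counts, edgeR called Wnt7b (6.64, adjusted p = 0.00807), Wnt5b (6.43, 0.0468) and Wnt4 (6.49, 0.0495) higher, with 2 or 3 metastasis libraries at or above the filter's minimum of 0.242 CPM and no normal one. Without the filter 18.5% of all genes were called.

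**Figure D2:**
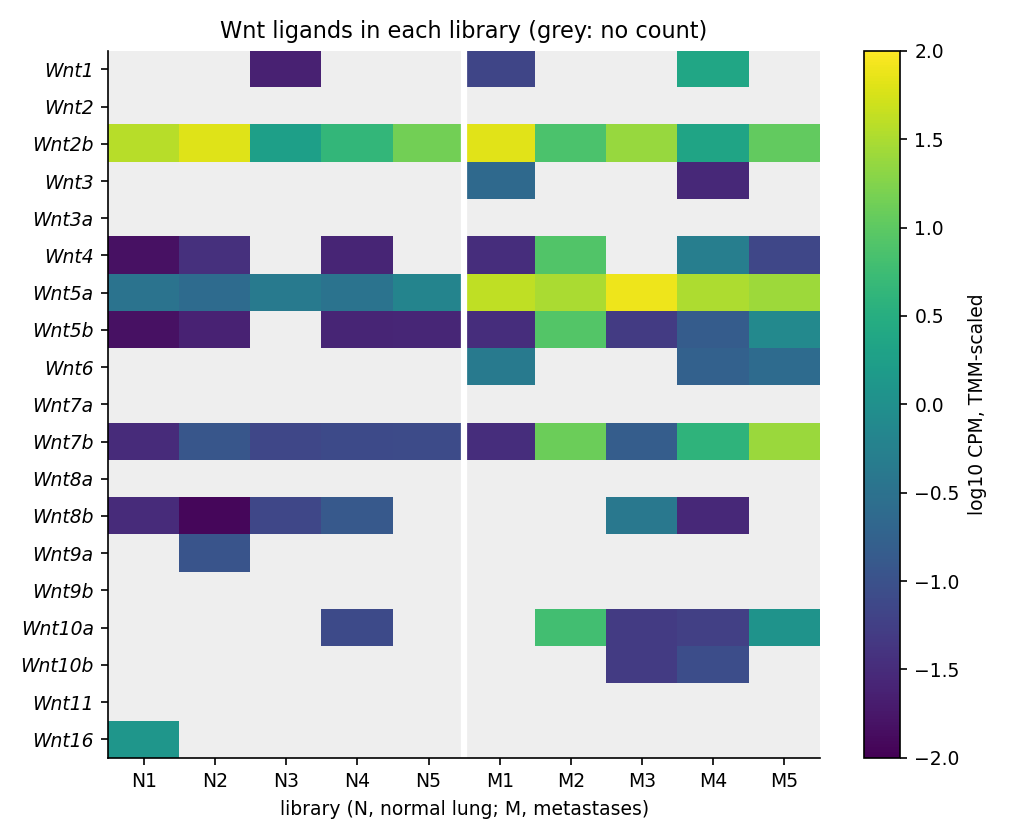
Level of each of the 19 Wnt ligands (rows) in the 5 normal lung (N) and 5 metastasis (M) libraries (columns), as log10 CPM by colour. Grey marks no count, and 6 rows are grey throughout. Wnt5a is the row that is low across N and high across M, while Wnt7b is high in M2, M4 and M5, and Wnt4, Wnt5b and Wnt10a are highest in M2.

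Of the 10 Frizzleds, the receptors of the pathway, 7 were tested, 1 fell and none rose. Fzd4, the norrin receptor (ENSMUSG00000049791.4, chromosome 7, 89404355 to 89413134, plus strand), was at 249, 243, 243, 152 and 141 CPM in normal lung and at 171, 62.0, 30.1, 12.7 and 8.14 CPM in metastases. Metastasis replicate 1 lay inside the normal range and the other 4 lay below it. The mean went from 205 ± 54.1 to 56.8 ± 67.2 CPM (SD, n = 5 each), 3.62-fold lower (-1.86 ± 0.63 SE, edgeR adjusted p = 0.0391). The call was lost in 7 of the 10 fits that left out 1 library (those without normal lung replicate 1, 2 or 3 or metastasis replicate 2, 3, 4 or 5; -1.88 to -1.57, adjusted p up to 0.0822), with DESeq2 (0.0634) and with RLE scaling (0.0566), while without metastasis replicate 1 the value was -2.89 (0.00123). Fzd4 was also not called without metastasis replicates 4 and 5 together or in replicates 1 and 2 alone. Relative to the pan-endothelial genes, which fell as well, the log2 fold change of Fzd4 was 0.15 (adjusted p = 0.862).

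Fzd6, Fzd5 and Fzd7 varied more between libraries of a group than between groups. Fzd6, a receptor linked to planar polarity, was at 48.7, 51.8, 81.2, 35.1 and 48.4 CPM in normal lung and at 56.9, 9.79, 157, 2.79 and 2.29 CPM in metastases (-0.21 ± 0.86 SE, edgeR adjusted p = 0.9). Fzd5, a receptor of vessel growth in the placenta and yolk sac, was at 105, 66.4, 0.918, 19.8 and 7.45 CPM against 6.94, 24.7, 7.74, 80.3 and 37.4 CPM (-0.35 ± 0.93, 0.839). Their ranges overlapped: Fzd6 was highest and lowest in metastasis libraries, and Fzd5 both in normal ones. The remaining tested receptors were Fzd7 (1.91 ± 1.31), Fzd8 (-2.46 ± 1.31), Fzd1 (0.26 ± 1.47) and Fzd3 (-0.20 ± 1.28), and none of these passed with edgeR. DESeq2 called Fzd8 lower (-2.41, adjusted p = 0.0499). Fzd3, a receptor of axon guidance, was at 4.03, 12.3, 7.48, 13.8 and 11.6 CPM in normal lung and at 37.9, 4.13, 0.298, 0.174 and 0.212 CPM in metastases. Its value near 0 rests on metastasis replicate 1, which was above all normal libraries while replicates 3 to 5 were below them: without replicate 1 it was -3.04 (adjusted p = 0.128), and in replicates 3 to 5 alone it was called lower (-5.59, 0.0247). Fzd7 was at 0.184 to 12.6 CPM in normal lung and 0.237 to 62.0 CPM in metastases, with metastasis replicate 2 highest. Of the untested receptors, Fzd9 had 500 counts in normal lung replicate 1 and at most 3 elsewhere, Fzd2 had 1 count in all, and Fzd10 had none.

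Compared per transcript length, Fzd4 was the leading Frizzled of every normal library, at 62.3 to 73.1% of the summed Frizzled FPKM. In metastases its share was 73.3, 39.2, 18.9, 14.5 and 12.1% in replicates 1 to 5. The leading receptor differed between the metastasis libraries: Fzd4 in replicate 1, Fzd4 and Fzd7 (37.4%) in replicate 2, Fzd6 (67.5%) in replicate 3, and Fzd5 in replicates 4 (67.1%) and 5 (37.5%). Summed Frizzled FPKM was 84.2 ± 22.9 (SD, n = 5) over normal lung libraries and 38.4 ± 20.5 (SD, n = 5) over metastases.

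**Figure D3:**
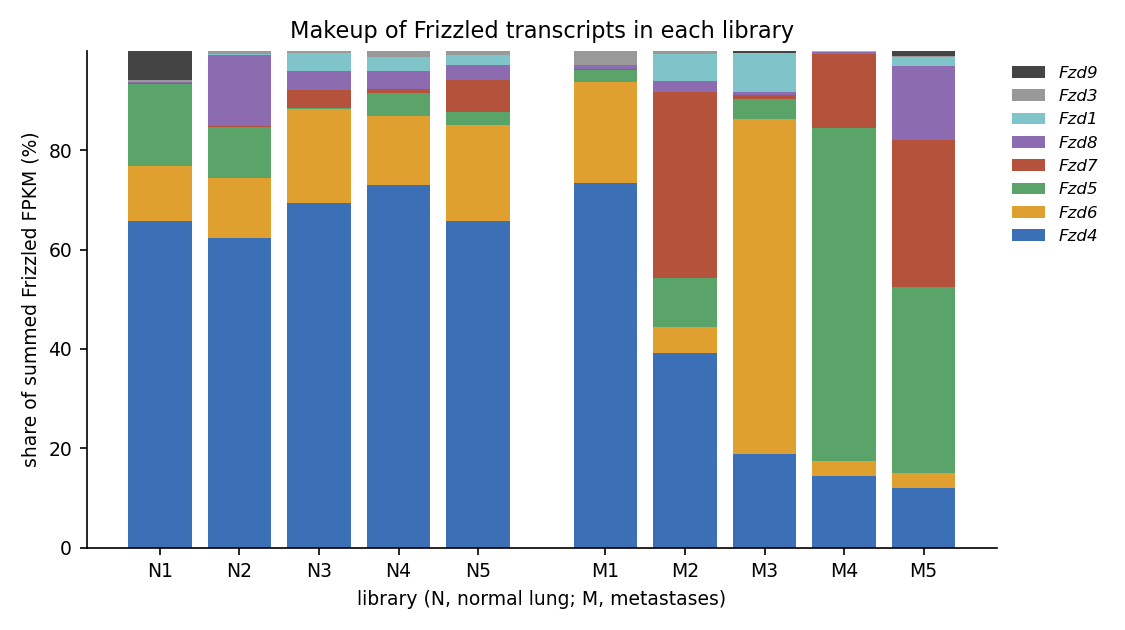
Share of the summed Frizzled FPKM (vertical axis, %) taken by each Frizzled in the 5 normal lung (N) and 5 metastasis (M) libraries, as stacked bars. Fzd4 takes 62.3 to 73.1% of every N bar and of M1 (73.3%), and 12.1 to 39.2% of M2 to M5, where Fzd5, Fzd6 or Fzd7 takes up to 67.5%.

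Of the 3 coreceptors and receptor partners Tspan12 fell, and Lrp6 and Lrp5 did not pass. Tspan12, the tetraspanin of the Fzd4 complex (ENSMUSG00000029669.14, chromosome 6, 21771395 to 21852515, minus strand), was at 219, 199, 297, 307 and 545 CPM in normal lung and at 53.7, 29.0, 104, 35.6 and 8.18 CPM in metastases. The groups did not overlap: the highest metastasis library was below the lowest normal one. The mean went from 313 ± 138 to 46.2 ± 36.4 CPM (SD, n = 5 each), 6.79-fold lower (-2.76 ± 0.55 SE, edgeR adjusted p = 0.000863). Per length it was the leading member of normal lung, at 88.4 ± 36.0 FPKM beside 86.5 ± 25.5 FPKM for Ctnnb1, a difference well inside the spread. The fall held in each fit that left out 1 library (-3.34 to -2.50), but not in replicates 1 and 2 alone (-2.32, adjusted p = 0.0963). With pan-endothelial scaling it was -0.40 (adjusted p = 0.619). The antisense gene Gm30270 overlaps Tspan12.

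Lrp6, the coreceptor of canonical Wnt signalling, was at 405, 187, 226, 172 and 209 CPM in normal lung and at 191, 280, 267, 154 and 284 CPM in metastases. The 2 ranges coincided for the most part (-0.03 ± 0.39 SE, edgeR adjusted p = 0.973), and Lrp6 was the steadiest member in metastases, with a coefficient of variation of 25.1%. Lrp5, its homolog in the norrin receptor, was at 96.3, 123, 39.2, 38.0 and 44.5 CPM against 128, 67.9, 21.1, 35.4 and 9.80 CPM (-0.38 ± 0.67, 0.749). With pan-endothelial scaling the log2 fold changes of Lrp6 and Lrp5 turned to 2.82 and 1.98.

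**Figure D4:**
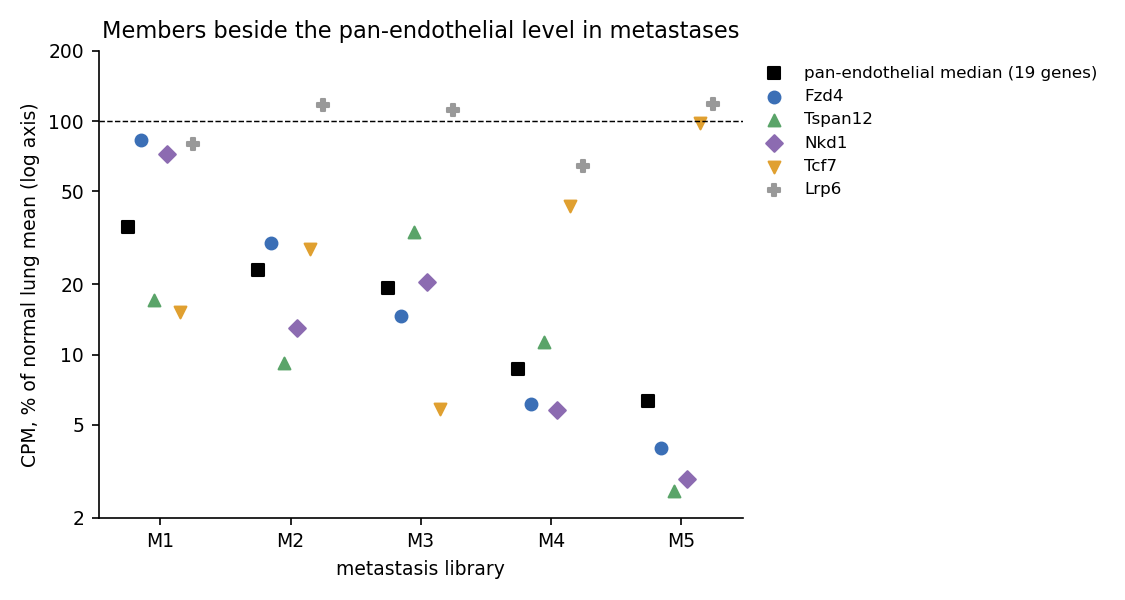
Level in metastasis libraries M1 to M5 (horizontal axis) as % of the normal lung mean (vertical log axis; dashed line at 100%) for members and for the median of 19 pan-endothelial genes. Fzd4 goes from 83.2% in M1 to 3.96% in M5 in the same library order as the pan-endothelial median (35.2% to 6.32%), while Lrp6 lies between 64.2 and 119%. Tcf7 is highest in M5 (98.2%).

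Expressed against the normal lung mean, Fzd4 stood at 83.2, 30.2, 14.7, 6.16 and 3.96% in metastasis replicates 1 to 5. The 19 pan-endothelial genes stood in the same order of libraries at 35.2, 23.1, 19.3, 8.66 and 6.32%. Tspan12 stood at 17.1, 9.24, 33.3, 11.3 and 2.61%, with replicate 3 highest, so replicates 1 to 4 stood in another order. Lrp6 stood at 79.8, 117, 111, 64.2 and 119% and did not follow that order.

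Of the 6 transducers 5 were tested with edgeR and none was called. Ctnnb1, which encodes beta-catenin, the messenger of the canonical branch and also a part of cell junctions, was at 220, 213, 276, 374 and 276 CPM in normal lung and at 205, 235, 70.6, 194 and 172 CPM in metastases. The groups overlapped, with metastasis replicate 3 far below the rest (-0.63 ± 0.40 SE, edgeR adjusted p = 0.297). Among the Tcf factors, which carry beta-catenin to DNA, Tcf7 was at 73.0, 81.2, 72.7, 46.1 and 50.1 CPM against 9.85, 18.4, 3.77, 28.0 and 63.5 CPM. Metastasis replicates 1 to 4 were below all normal libraries and replicate 5 was inside their range (-1.39 ± 0.71, edgeR adjusted p = 0.186). Tcf7 was called lower by limma on log2(FPKM + 1) (-1.79, adjusted p = 0.0256) and log2(FPKM + 0.1) (-1.98, 0.0261), and by edgeR without metastasis replicates 4 and 5 together (-2.63, 0.0483). Tcf7l2 was at 265, 28.7, 74.5, 30.8 and 152 CPM against 198, 54.2, 167, 46.0 and 39.1 CPM, with full overlap (-0.13 ± 0.63, 0.918).

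Tcf7l1, mostly a repressor of the family, was at 0.753 to 30.5 CPM in normal lung and 0.943 to 6.09 CPM in metastases (-2.11 ± 1.22). Axin1, the scaffold of the destruction complex, was at 0.59 ± 1.10 (SE). Lef1 did not pass the filter: normal lung replicates 2, 3 and 4 held 8.15, 2.02 and 7.72 CPM, and all other libraries at most 0.474 CPM. In FPKM only normal lung replicate 2 stood out, at 2.67. Normal lung replicates 3 and 4 were at 0.0178 and 0.0398 FPKM, below metastasis replicate 1 at 0.264 FPKM. DESeq2, which tested Lef1, called it lower (-4.41, adjusted p = 0.00925), and edgeR without the filter did not (-4.58, 0.0857). With pan-endothelial scaling Ctnnb1 turned to 2.08 and Tcf7l2 to 2.37.

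The feedback inhibitors split: Znrf3 rose, Nkd1 fell and Axin2 did not pass. Znrf3 is a membrane ubiquitin ligase that removes Frizzled from the cell surface (ENSMUSG00000041961.14, chromosome 11, 5276324 to 5444847, minus strand). It was at 31.4, 3.23, 44.9, 8.68 and 19.9 CPM in normal lung and at 347, 48.0, 180, 72.1 and 74.4 CPM in metastases. In CPM the lowest metastasis library lay just above the highest normal one. In FPKM the groups overlapped, with metastasis replicate 2 at 5.33 and normal lung replicate 3 at 6.07. The mean went from 21.6 ± 16.9 to 144 ± 124 CPM (SD, n = 5 each), 6.67-fold higher (2.74 ± 0.71 SE, edgeR adjusted p = 0.00738). Leaving out 1 library gave 2.09 to 3.17 with every call kept, the lowest without metastasis replicate 1, and replicates 3 to 5 alone gave 2.13 (adjusted p = 0.0759). Rnf43, the homolog of Znrf3, was not tested. It had no count in normal lung and 59, 0, 0, 8 and 10 counts in metastases, at least 38.5-fold higher over the pooled libraries than 3 counts in normal lung would give (10.8-fold without metastasis replicate 1). Without the filter on low counts edgeR called it higher (7.53, adjusted p = 0.043).

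Nkd1 binds Dishevelled in the cytoplasm and is itself a target of canonical signalling in many tissues (ENSMUSG00000031661.12, chromosome 8, 88521354 to 88594884, plus strand). It was at 210, 357, 110, 107 and 267 CPM in normal lung and at 152, 27.3, 43.2, 12.2 and 6.17 CPM in metastases. Metastasis replicate 1 lay inside the normal range and the other 4 lay below it, as for Fzd4. The mean went from 210 ± 107 to 48.3 ± 60.0 CPM (SD, n = 5 each), 4.36-fold lower (-2.12 ± 0.67 SE, edgeR adjusted p = 0.0252). The call was lost without normal lung replicate 2 (-1.87, adjusted p = 0.0737), metastasis replicate 2 (-1.96, 0.0611) or metastasis replicate 4 (-1.87, 0.0572), and without metastasis replicate 1 the value was -3.26 (0.000664). Nkd1 was also not called without metastasis replicates 4 and 5 together or in replicates 1 and 2 alone. Pan-endothelial scaling gave -0.10 (0.908).

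Axin2, the most widely used target gene of canonical signalling, was at 27.4, 21.6, 0.235, 17.9 and 4.21 CPM in normal lung and at 9.14, 4.35, 0.397, 0.348 and 0.458 CPM in metastases. The groups overlapped and the fall in the mean, from 14.3 ± 11.6 to 2.94 ± 3.86 CPM (SD, n = 5 each), did not pass (-2.28 ± 1.29 SE, edgeR adjusted p = 0.237). Normal lung replicate 3 was below every metastasis library, and metastasis replicates 1 and 2 were above normal lung replicate 5. Apcdd1, a membrane inhibitor, was not tested, with 4.65 CPM in normal lung replicate 2, 9.66 CPM in metastasis replicate 2 and at most 0.297 CPM elsewhere. Notum, the enzyme that strips the lipid from Wnts, had no count.

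**Figure D5:**
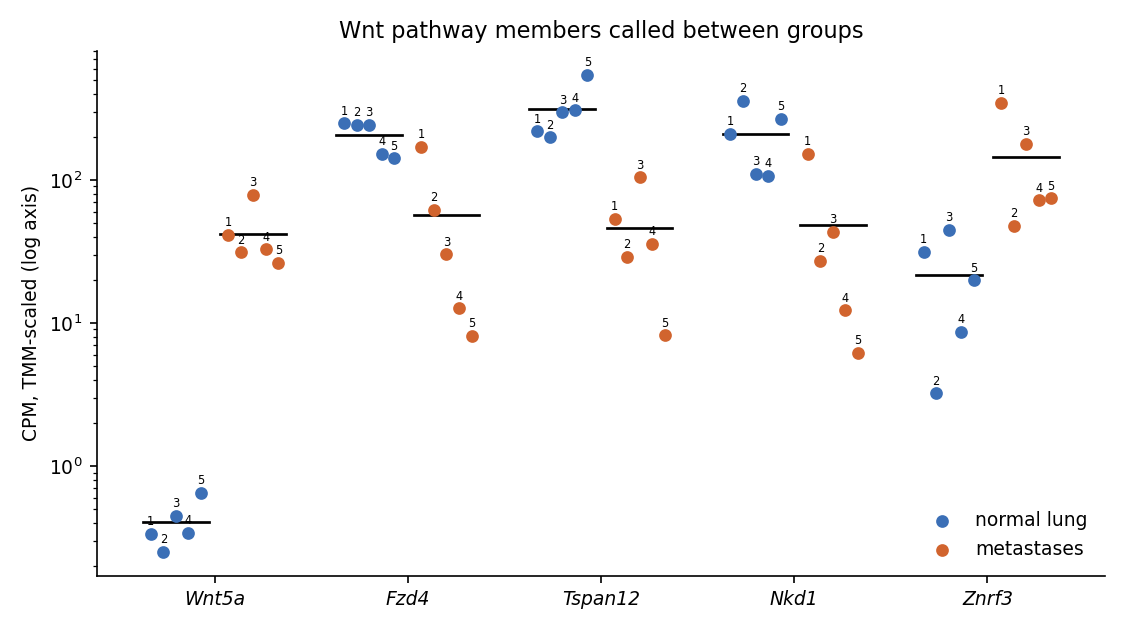
Level of the 5 called members in each library (vertical log axis, TMM-scaled CPM), normal lung beside metastases, with 1 point per library. Wnt5a and Znrf3 points of metastases lie above all normal ones, those of Tspan12 lie below, and for Fzd4 and Nkd1 the highest metastasis point (171 and 152 CPM) lies within the normal range.

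Set side by side per length, 4 members of different roles led in normal lung: Tspan12 88.4 ± 36.0, Ctnnb1 86.5 ± 25.5, Nkd1 65.9 ± 29.2 and Fzd4 56.2 ± 13.6 FPKM (SD, n = 5). Tcf7 (25.1 ± 8.19), Lrp5 (23.9 ± 6.98), Lrp6 (22.5 ± 7.95) and Tcf7l2 (20.3 ± 24.7 FPKM) followed without differing from each other beyond their spread. In metastases Ctnnb1 led at 51.7 ± 15.3 FPKM. Lrp6 (20.2 ± 4.48), Tcf7l2 (19.95 ± 15.3), Znrf3 (19.5 ± 17.5), Lrp5 (18.8 ± 19.7), Nkd1 (15.4 ± 19.4), Fzd4 (15.1 ± 17.8) and Tspan12 (14.5 ± 14.5 FPKM) came next and lay within each other's spread.

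A wider list of 72 other pathway genes was read beside the members: ligand secretion, R-spondins and norrin, other receptors, antagonists, cytoplasmic and nuclear regulators, and planar polarity. Of these 47 were tested, 1 rose and 7 fell, which is 17% against 20.2% of all genes, with a median log2 fold change of -0.47. Dkk2, a secreted protein that binds Lrp5 and Lrp6 and modulates the pathway, was the gene that rose. It was at 0.12 to 0.353 CPM in normal lung and at 0.711, 37.0, 43.7, 7.29 and 89.3 CPM in metastases, so all metastases lay above all normal libraries and replicate 1 only just. The mean went from 0.247 ± 0.103 to 35.6 ± 35.2 CPM (SD, n = 5 each), 143-fold (7.16 ± 1.28 SE, edgeR adjusted p = 0.000327), and without metastasis replicate 5 the value was 6.46. Normal lung libraries held 7 to 15 counts and metastasis replicate 1 held 21. In replicates 1 and 2 alone Dkk2 was not called.

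Of the 8 tested planar polarity genes, which orient cells within a sheet, 3 fell and none rose, and in all 3 the groups did not overlap. Over all tested genes 8.22% fell and 6.17% lay below without overlap, and the list was not tested against other genes. Vangl2, a core membrane protein of that system, was at 106, 86.0, 84.0, 72.5 and 102 CPM in normal lung and at 2.64, 2.2, 5.51, 4.35 and 4.05 CPM in metastases. Both groups were tight, and the difference of 24.0-fold (-4.59 ± 0.69 SE, edgeR adjusted p = 4.62e-05) was far larger than the spread. Its cytoplasmic partners Prickle1 (622 ± 326 to 73.4 ± 62.3 CPM, -3.08 ± 0.53) and Prickle2 (1001 ± 171 to 186 ± 117 CPM, -2.42 ± 0.42) fell with edgeR adjusted p of 0.000203 and 0.000224 (SD, n = 5 each). Without metastasis replicate 1 Prickle1 was at -3.74. With pan-endothelial scaling Prickle2 was at 0.02, and no gene of the wider list was called lower.

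The other 4 that fell were spread over the list. Reck, which with Adgra2 forms a receptor for Wnt7a and Wnt7b in brain vessels, was at 2.69 to 24.3 CPM in normal lung and 0.474 to 2.45 CPM in metastases, without overlap (-3.78 ± 1.14 SE, edgeR adjusted p = 0.0197). Adgra2 was at -2.49 ± 1.00 and did not pass (0.0831), but was called lower by DESeq2 (-2.37, adjusted p = 0.0254), with a term for replicates 1 and 2 (-3.04, 0.0185) and without metastasis replicate 1 (-3.75, 0.0115). Rspo3, an R-spondin that stabilises Frizzled at the surface by removing Znrf3, was at 3.54, 0.323, 52.2, 3.49 and 37.1 CPM in normal lung and at 3.18, 0.0459, 0.198, 0.0871 and 0.176 CPM in metastases. The groups overlapped through normal lung replicate 2 and metastasis replicate 1 (-4.71 ± 1.51, adjusted p = 0.0287), and the call was lost in 6 of the 10 fits that left out 1 library (those without normal lung replicate 3 or 5 or metastasis replicate 2, 3, 4 or 5; adjusted p up to 0.102). Without metastasis replicate 1 Rspo3 was at -7.29. Nkd2, the homolog of Nkd1, fell from 80.4 ± 98.0 to 6.54 ± 8.16 CPM (-3.62 ± 0.97, adjusted p = 0.00954), and without normal lung replicate 1, which held 249 CPM, it was at -2.58 (0.0921), and without metastasis replicate 5 at -4.69. Bcl9l, a coactivator of beta-catenin, fell from 125 ± 135 to 10.1 ± 4.07 CPM without overlap of the groups (-3.63 ± 0.78, adjusted p = 0.0018), and without normal lung replicate 1 the value was -2.93. Its normal lung libraries were at 323, 207, 19.8, 18.4 and 54.9 CPM, and the highest metastasis library was at 14.4 CPM. Neither Nkd2 nor Bcl9l was called in replicates 3 to 5 alone.

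No gene was called for ligand secretion or among the 14 tested cytoplasmic regulators. Wls, which carries Wnts to the cell surface, was at -0.54 ± 0.66 (SE), with 12.0 FPKM in normal lung and 7.68 FPKM in metastases. Porcn, the enzyme that adds their lipid, was at -0.38 ± 1.29, with 7.0 and 4.40 FPKM. Of the destruction complex kinases, Csnk1a1 was at -0.11 ± 0.50 (93.5 and 66.4 FPKM) and Gsk3a at -1.28 ± 0.72 (98.3 and 42.9 FPKM). Ndp, which encodes norrin, the ligand of the Fzd4, Lrp5 and Tspan12 complex, had no count in any library.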

How the data were processed

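RNA of sorted cells was sequenced in 10 libraries as paired 100 bp reads after amplification with the Ovation V2 kit, per the labels' protocols. Per the submitters' processing notes, the tools were HTSeq 0.6.1, TopHat2 2.0.13, DESeq2 1.6.3 and Cufflinks 2.2.1, with builds mm10 and GRCm38. Annotation and strand setting were not given in the sources used here, which leaves overlapping genes uncertain. Raw deposited counts are whole numbers per gene and sample, and their HTSeq summary rows, which name no gene, were left out: 24.3 to 34.4% of the listed total was assigned to genes in normal lung and 14.6 to 28.2% in metastases. The authors' FPKM table (24460 genes, scaled by transcript length and depth) served for levels between genes and as an alternative. All 10 of its columns matched their own sample's counts best (Spearman).

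Genes were filtered with filterByExpr, which here asks for 0.242 CPM in 5 libraries, with TMM scaling. Normal lung and metastases were compared by edgeR 4.0.16 in R 4.3.3 (quasi-likelihood F test, robust, two-sided, no covariate). SE is the size of the log2 fold change divided by the root of F. The common coefficient of biological variation was 1.01. All 20 tested members reached the minimum in libraries of both groups. Scripts were tested on simulated data. The members and gene lists were chosen with earlier results of these data known. All members are accounted for: every tested one with its fold change, called ones and the 3 highest per role with each library's value. Of the wider list, called genes were named, and the 2 of highest FPKM where a role had no call; Adgra2, Ndp and single examples beyond that were picked with their values in view. Gene positions come from GENCODE M21 (GRCm38). Alternatives were DESeq2 1.42.0, other scalings, filters and thresholds, limma 3.58.1 on log2(FPKM + 1) and log2(FPKM + 0.1) of the deposited values, a replicate block, a term for replicates 1 and 2, subsets of libraries, and leaving out each library. Intervals for a count of 0 cover counting error only. Plots used matplotlib 3.10.9 (Python 3.11.15).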

Additional observations from a re-analysis of the deposited data

Results flagged for a closer look

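Within groups of 5 libraries, 2 of 40 member series held a library whose gap to its nearest neighbour was over 0.71 of the group's range, on log2 CPM with a prior count of 2. Chance gives about 1 such series in 20. Ctnnb1 in metastasis replicate 3 was at 6.14 (70.6 CPM, gap 0.742 of the range), below the other metastasis libraries. Axin1 in normal lung replicate 3 was at -0.96 (0.471 CPM, gap 0.801 of the range), below the other normal libraries. Neither gene was called between the groups.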

How the results depend on the processing

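With DESeq2, 2369 genes were higher and 1653 lower, 6 members higher, and 4 and 11 wider pathway genes higher and lower. With scaling to the pan-endothelial genes the counts were 7128 and 20 genes, 9 and 0 members, and 25 and 0 wider genes. Of the members and wider genes called in the main fit, the direction turned for Fzd4 (0.15) and Prickle2 (0.0163). Among members not called there, Fzd5 (3.23), Lrp5 (1.98), Lrp6 (2.82), Ctnnb1 (2.08) and Tcf7l2 (2.37) turned from a negative value to a call as higher. Other uncalled genes whose sign turned are not listed. With no filter on low counts 6 members and 3 wider genes were higher, and with a minimum of 1 CPM in 5 libraries 0 wider genes, since Dkk2 was then not tested. A threshold of 0.01 left 869 and 453 genes and 1 member lower. Replicates 1 and 2 alone gave 487 and 201 genes and 0 members lower (Tspan12 -2.32, Fzd4 -1.06, Nkd1 -1.64). Replicates 3 to 5 alone gave 1 member higher, and leaving out metastasis replicates 4 and 5 together gave 527 genes lower. In the fit without metastasis replicates 4 and 5 the members called lower were Tspan12 and Tcf7, and Fzd4 and Nkd1 were not called. Leaving out 1 library gave 1302 to 1440 genes higher, 792 to 1114 lower, 2 members higher, 1 to 3 lower, 1 to 3 wider genes higher and 6 to 10 lower. Members lower dropped to 1 without normal lung replicate 2, metastasis replicate 2 or metastasis replicate 4, and wider genes higher came to 3 without normal lung replicate 4 and to 2 without normal lung replicate 1, 2, 3 or 5 or metastasis replicate 3. The cause was not tested.

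Replicate numbers were used as a block in 1 fit. Deviations of same-numbered libraries correlated at 0.000682 to 0.142, and 3 of 5 normal and 2 of 5 metastasis libraries correlated best with their own number. These values do not settle whether the numbers mark pairs, and the main fit used none. Metastasis replicate 2 correlated at 0.0950 and 0.142 with normal lung replicates 1 and 2 and at -0.0997 to -0.0663 with replicates 3 to 5. For metastasis replicate 3 these were -0.0429 and -0.117, and 0.0167 to 0.0861. The cause was not tested. The median log2 fold change of the tested members was -0.71 with the block and -0.28 without it. The replicate block gave 1435 genes higher and 1180 lower, 2 members higher and 3 lower, and 1 and 10 wider genes, Adgra2 among those lower (-2.96, adjusted p = 0.0385). In a single library, levels under its own 3 counts (0.0359 to 0.149 CPM) cannot be told from 0.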
